A study of Rattus norvegicus with 9 samples.

Results

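The genes described here are those whose deposited pathway annotation names the spliceosome, the machine that removes introns from precursor mRNA. The annotation marked 116 genes in this way. Leaving out the 3 heat shock genes among them (Hspa1b, Hspa1l and Hspa2) gave 113 genes of the 21923 in the table, and 111 of the 113 had enough counts to be tested. They were measured by sequencing of poly(A)-selected RNA from rat adipose-derived stromal cells (ADSCs), mesenchymal cells that adhere to plastic and had been freed from inguinal fat with collagenase. All cells came from GFP-transgenic rats and were at passage 4 when the groups were set apart. Vivo cells were injected into fat of nude mice, which lack mature T cells but keep other immune cells, and were recovered 7 days later; how they were separated from host cells is not given in the labels. Vitro cells stayed in ordinary incubator culture, were passaged further and were taken when the Vivo cells were. Con cells were the passage 4 culture itself. Each group had 3 libraries, and the labels do not say whether these came from separate animals or cultures, so p-values measure the spread between libraries, which may be technical.

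The spliceosome is assembled anew on each intron from small nuclear ribonucleoproteins (snRNPs), each a short RNA carried by proteins. Most of these RNAs sit in a ring of Sm proteins, while U6 RNA is held by a ring of related LSm proteins. U1 snRNP recognises the start of the intron, and U2 snRNP with its SF3a and SF3b subcomplexes binds the branch point. The U4/U6.U5 tri-snRNP then joins, the Prp19 complex stabilises the activated machine, and helicases drive its rearrangements. SR proteins and hnRNPs bind the transcript and influence which sites are used, and the cap-binding, exon junction and TREX complexes link splicing to export. These genes are active in essentially all nucleated cells, stromal cells included.

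Total counts lay between 17484607 and 18355242 per library, so 3 counts, the upper limit that a count of 0 allows, correspond to 0.163 to 0.172 CPM, the unit of counts on a common library size. All 11 stromal markers checked, among them Thy1, Pdgfrb and Col1a1, were measured, with a summed level of 50500 to 53700 CPM in Vivo, 42300 to 62900 CPM in Vitro and 61200 to 78900 CPM in Con. Of 12 immune markers, 9 averaged under 1 CPM, Ptprc included, and Cd3e had no count. The 12 summed to 27.5 to 33.5 CPM in Vivo, 22.4 to 27.6 CPM in Vitro and 22 to 25.7 CPM in Con. The 6 mural cell markers summed to 67.1 to 117 CPM in Vivo, 46.6 to 49.4 CPM in Vitro and 35.6 to 37.1 CPM in Con, and Rgs5 averaged under 1 CPM. The 5 mesothelial markers summed to 102 to 143 CPM in Vivo, 25.1 to 29.3 CPM in Vitro and 23.5 to 29.5 CPM in Con, with Krt19, Lrrn4 and Upk3b under 1 CPM. The 8 endothelial markers, with Cldn5 at 0, summed to 43.5 to 57.3 CPM in Vivo, 32.6 to 38.3 CPM in Vitro and 36.4 to 46.1 CPM in Con. Adipocyte markers summed to at most 2.15 CPM and the red cell markers found to at most 0.455 CPM in any library. Epithelial markers summed to 3.97 to 5.94 CPM in Vivo, 0.641 to 1.28 CPM in Vitro and 1.53 to 9.15 CPM in Con. The mural, mesothelial, endothelial and epithelial sums were higher in Vivo than in Vitro, as most spliceosome genes were. By the test described below, 3 of 5 mural, 2 of 3 mesothelial, 1 of 3 endothelial and 2 of 2 epithelial markers tested rose relative to Vitro. A fall was called for 1 mesothelial marker. In Vivo the mural, mesothelial and immune sums lay above every Con library and the stromal sum below. The endothelial and epithelial sums overlapped those of Con. The part of these cell types in the results was not tested. Vivo replicate 3 stood apart from the other libraries in a way that followed gene length, and values it moves by over 1.5 times are given with and without it for the roles and for genes described in detail.

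Levels of different genes were compared as FPKM, the authors' value scaled for gene length and library size. The spliceosome genes spanned a wide range. Ddx5, an RNA helicase that associates with U1 snRNP, was the most abundant with a mean of 186 FPKM over the 9 libraries. Hnrnpk, which binds C-rich RNA, followed with 161 FPKM, and Srsf2, an SR protein, with 142 FPKM. Hnrnpu, a nuclear matrix RNA-binding protein, stood at 111 FPKM and Snrpd2, a subunit of the Sm ring, at 97.7 FPKM. Among the genes tested the lowest was LOC100911576 with 0.775 FPKM, followed by Rp9, a gene linked to retinal degeneration, with 2.31 FPKM.

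A pair of annotated genes could not be tested. Ddx39b, the RNA helicase of the TREX export complex, had 0 counts in all 9 libraries. The deposited FPKM of the same gene were 78.1, 66.8 and 85.7 FPKM in the Vivo libraries, 55.9, 73.5 and 72.7 FPKM in the Vitro libraries and 68.97, 74.9 and 67.3 FPKM in the Con libraries. Its counts and FPKM thus contradict each other, and the groups overlapped on the FPKM scale. Among all 21923 genes, 5657 had 0 counts in every library, and 14 of them had a mean above 1 FPKM, so the mismatch was rare. The other untested gene, Wbp11l1, had 5 to 14 counts per library.

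The comparison of Vivo with Con set cells recovered after 7 days in host fat against the culture they had come from. Spliceosome genes were mostly higher in the recovered cells, by modest amounts. Of 111 tested, 98 had a log2 fold change above 0 (88.3%), where 51.1% of all 12364 genes tested did. Their median log2 fold change was 0.31, with the middle 50% between 0.13 and 0.50, while the median of all genes was 0.01. The extremes were 1.44 for LOC100911576 and -0.39 for Thoc2, and neither passed the test. With Vivo replicate 3 left out, LOC100911576 stood at 1.72 and passed (adjusted p = 0.0316), and Thoc2 at 0.00. LOC100911576 was low, with 12.55, 6.16 and 4.00 CPM in the Vivo libraries and 2.16, 4.075 and 2.14 CPM in the Con libraries. Vivo replicate 1 stood far above the rest. The length that its counts and FPKM imply varied 3.29-fold among libraries, so its values are uncertain.

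By the quasi-likelihood test of edgeR, adjusted over all genes by the Benjamini-Hochberg method with a threshold of 0.05, 12 of the 111 rose in Vivo relative to Con. That is 10.8% of the spliceosome genes, beside 5.17% of all genes tested that rose. None fell (0 of 111), beside 4.56% of all genes, and at an unadjusted p under 0.05 the number lower was also 0, beside 12.5%. At that unadjusted threshold 47 were higher (42.3%), beside 14.9% of all genes. The 3 Vivo libraries lay entirely above the 3 Con libraries for 58 genes (52.3%, beside 17.3% of all genes) and entirely below them for 5 (4.5%, beside 16.1%). DESeq2 called 29 of the 111 higher (26.1%, beside 9.13% of all genes) and 0 lower (beside 7.75%), and the 12 were among the 29. RNA was measured in bulk, so more cells of one kind and more RNA per cell cannot be told apart.

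The 12 that rose came from 7 of the roles listed above. They were Lsm2, Lsm3 and Lsm5 of the LSm ring, Prpf4, Ppih and Prpf31 of the tri-snRNP, Sf3a1 and Sf3a3 of U2 snRNP, Snrpf of the Sm ring, Snrpa of U1 snRNP, the export adaptor Alyref and the hnRNP-related Rbmxl1. Their fold changes lay between 0.45 and 1.09 on the log2 scale. How many were called depended on single libraries. The share of all genes tested that rose, 5.17% with all 9 libraries, moved as well and is given in brackets. Without Con replicate 1 or without Con replicate 3 the number called was 0 (1.58% and 1.25% of all genes). It was 2 without Vivo replicate 1 (2.76%), 3 without Vitro replicate 2 (3.13%) and 6 without Vitro replicate 3 (3.38%). It was 8 without Vivo replicate 2 (3.13%) and 13 without Con replicate 2 (4.83%) or Vitro replicate 1 (5.74%). Without Vivo replicate 3 it was 14 (6.46%), where Lsm2 and Snrpa were lost, and every call was a rise. The fit to the 2 compared groups alone called 2, Prpf4 and Ppih (2.88%). With 1 library left out, the largest adjusted p of the 12 genes ran from 0.0896 for Ppih to 0.19 for Rbmxl1. The median log2 fold change moved less, between 0.25 and 0.34 with 1 library left out.

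**Figure D1:**
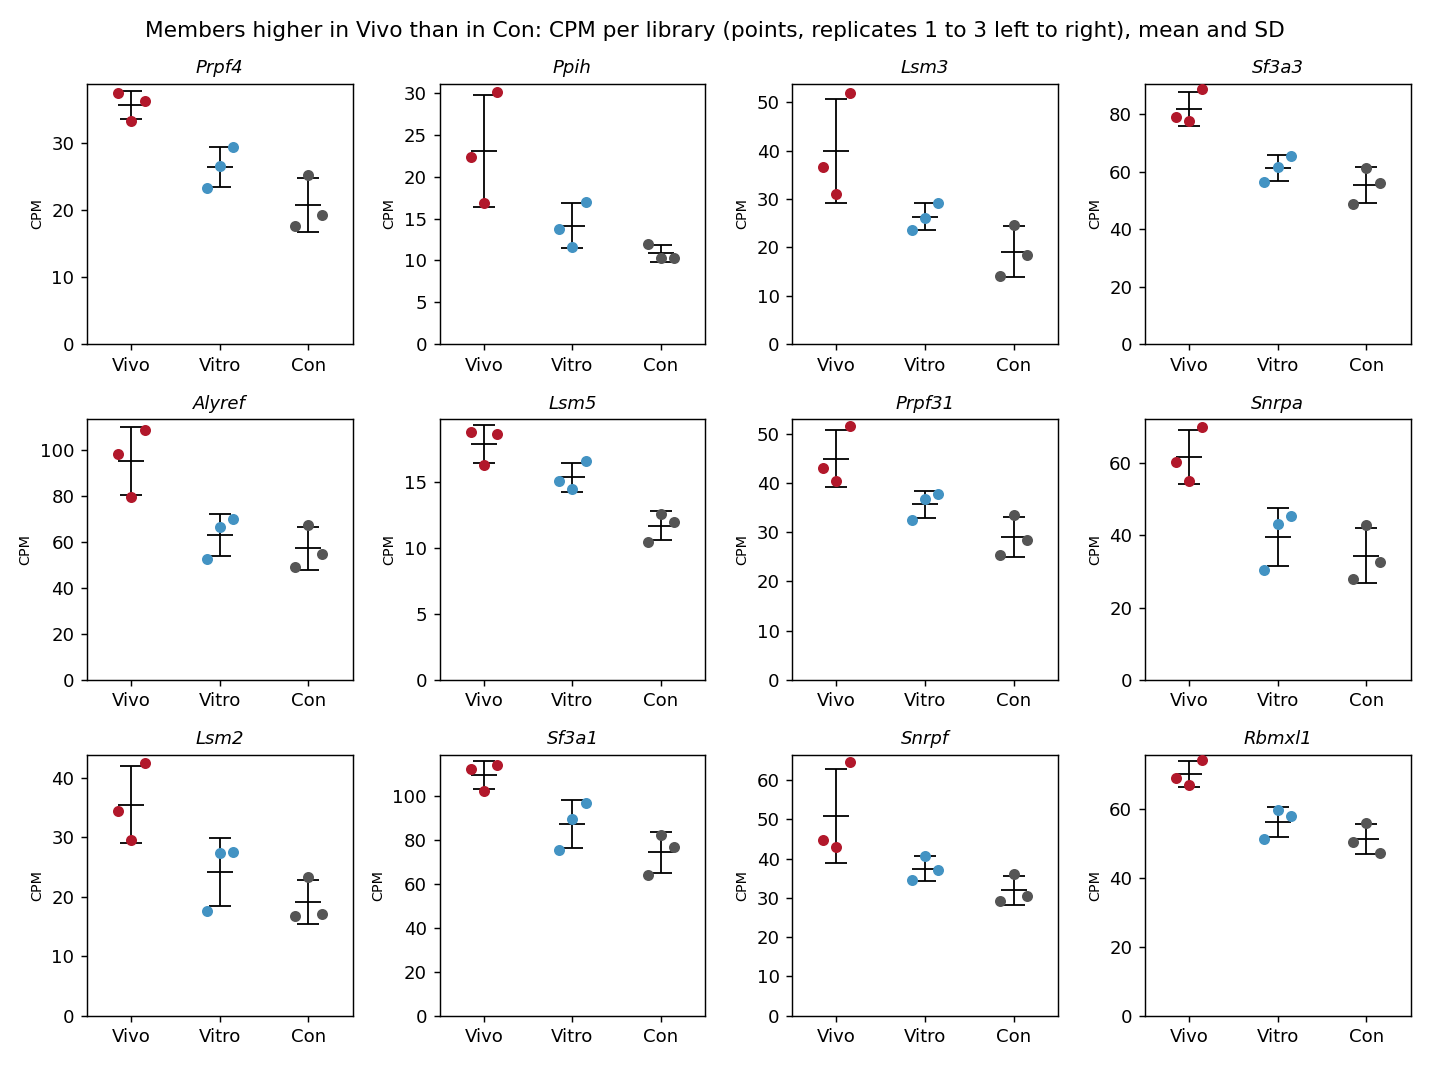
CPM of the 12 genes that rose in Vivo relative to Con, 1 panel a gene, with Vivo, Vitro and Con from left to right. Points are libraries (replicates 1 to 3 from left to right within a group), the dash is the mean and the bar the SD of 3 libraries. All Vivo points lie above all Con points in each panel, and Vitro means lie between the other 2 groups.

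An F test for any difference among the 3 groups called 6 of the 111 (5.41%), beside 10% of all genes: Ppih, Prpf4, Sf3a3, Alyref, Lsm3 and Snrpa. The bases before the transcription start of these 6 are shown because they passed this test, so that what precedes their starts can be compared. Each run below is the 250 bases before the RefSeq gene start in the GRCr8 assembly, written in the direction of transcription. Capitals mark matches, on either strand, to 5 motifs: CACGTG (E-box), TTTCGCGC (E2F), CCGGAAG (ETS), CCAAT and TGACGTCA (CRE). None of the motifs contains another.
Ppih (GRCr8 chr5:138209581-138209830, minus strand): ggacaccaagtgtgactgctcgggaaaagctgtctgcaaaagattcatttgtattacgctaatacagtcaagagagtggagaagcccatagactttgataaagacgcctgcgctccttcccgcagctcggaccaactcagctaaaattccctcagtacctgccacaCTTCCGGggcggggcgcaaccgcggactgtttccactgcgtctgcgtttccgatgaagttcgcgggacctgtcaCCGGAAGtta
Prpf4 (GRCr8 chr5:80875261-80875510, plus strand): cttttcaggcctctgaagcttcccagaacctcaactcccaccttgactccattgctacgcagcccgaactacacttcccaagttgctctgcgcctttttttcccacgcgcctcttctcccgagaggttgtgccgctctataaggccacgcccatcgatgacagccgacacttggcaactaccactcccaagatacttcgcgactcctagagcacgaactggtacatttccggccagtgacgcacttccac
Sf3a3 (GRCr8 chr5:142252157-142252406, plus strand): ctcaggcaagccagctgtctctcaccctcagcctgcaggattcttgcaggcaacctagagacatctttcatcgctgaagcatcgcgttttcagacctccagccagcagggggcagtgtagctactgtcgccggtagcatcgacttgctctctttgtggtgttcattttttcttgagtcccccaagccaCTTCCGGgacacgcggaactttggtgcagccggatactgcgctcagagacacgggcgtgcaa
Alyref (GRCr8 chr10:106373396-106373645, minus strand): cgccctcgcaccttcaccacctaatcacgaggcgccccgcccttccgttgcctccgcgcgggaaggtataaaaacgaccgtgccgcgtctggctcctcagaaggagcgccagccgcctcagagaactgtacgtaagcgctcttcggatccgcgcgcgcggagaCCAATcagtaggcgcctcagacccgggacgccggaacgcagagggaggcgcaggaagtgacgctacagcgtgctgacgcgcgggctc
Lsm3 (GRCr8 chr4:125577935-125578184, plus strand): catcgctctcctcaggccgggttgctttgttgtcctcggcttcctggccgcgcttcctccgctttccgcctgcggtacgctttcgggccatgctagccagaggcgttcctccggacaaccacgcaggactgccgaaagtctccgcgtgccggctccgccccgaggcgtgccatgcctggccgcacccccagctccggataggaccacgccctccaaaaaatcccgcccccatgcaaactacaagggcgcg
Snrpa (GRCr8 chr1:91618043-91618292, minus strand): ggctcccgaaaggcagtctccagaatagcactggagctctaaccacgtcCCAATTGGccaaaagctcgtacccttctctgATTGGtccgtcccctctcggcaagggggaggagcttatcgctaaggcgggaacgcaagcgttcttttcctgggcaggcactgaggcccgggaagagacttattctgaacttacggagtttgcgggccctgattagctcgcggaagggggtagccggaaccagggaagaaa
Ppih holds the ETS letters at 84 and 10 bases before its start, and Sf3a3 holds them at 62 bases. Alyref has CCAAT at 87 bases, and Snrpa has it at 201, 198 and 170 bases, where the first 2 matches are on opposite strands and overlap. Prpf4 and Lsm3 hold none of the 5 motifs in this window. Of the 113 genes, 109 matched a RefSeq gene by Ensembl identifier or, failing that, by symbol, and 99 matched a promoter, 98 of them tested. The ETS letters were in 29 of those 98 windows (29.6%), beside 15.3% of the 9113 windows of genes tested here and 7.74% of all 27457 windows. The 9113 windows were matched by symbol alone. CCAAT was in 43 (43.9%), beside 35.6% and 34.3%. The E-box was in 3.06% of the spliceosome windows, beside 8.31% and 5.79%, the CRE in 4.08%, beside 3.03% and 1.7%, and the E2F letters in 1.02%, beside 0.494% and 0.262%. Among the 12 genes that rose, 2 held the ETS letters, 5 held CCAAT and 0 held the other 3. These matches describe letters in a window and not binding.

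The LSm ring, which binds the end of U6 RNA, had the highest median of any role with more than 1 gene, a log2 fold change of 0.82 for Vivo against Con over 6 genes. The median was 0.52 without Vivo replicate 3, still the highest of the roles, and with the gene length offsets described below it was 0.58. The ring's genes are short, with a median implied length of 866 bases. Vivo libraries lay above Con libraries for all 6, and 3 of the 6 rose, or 2 without Vivo replicate 3. Lsm3 (ENSRNOG00000008733) had 36.7, 31.1 and 51.9 CPM in the Vivo libraries, 23.6, 26.03 and 29.2 CPM in the Vitro libraries and 14.1, 24.7 and 18.5 CPM in the Con libraries. The Vivo libraries stood above all others, with Vivo replicate 3 the highest, and the Con libraries were the lowest apart from Con replicate 2, which exceeded Vitro replicate 1. Its log2 fold change for Vivo against Con was 1.06 ± 0.24 (SE, as after every fold change here) with an adjusted p of 0.0257. Lsm2 (ENSRNOG00000048725) had 34.4, 29.5 and 42.4 CPM in the Vivo libraries, 17.6, 27.3 and 27.5 CPM in the Vitro libraries and 16.8, 23.4 and 17.03 CPM in the Con libraries. Vivo again lay above the rest, and Vitro replicate 1 lay within the Con range. This gave a log2 fold change of 0.89 ± 0.22 and an adjusted p of 0.0353, and without Vivo replicate 3 it was not called (0.73, adjusted p = 0.0602). Lsm5 (ENSRNOG00000042126) had 18.8, 16.2 and 18.6 CPM in the Vivo libraries, 15.03, 14.4 and 16.6 CPM in the Vitro libraries and 10.5, 12.6 and 11.99 CPM in the Con libraries. Here the spread within groups was small: Vitro lay above Con in every library, and Vivo replicate 2 lay inside the Vitro range. Its log2 fold change was 0.61 ± 0.15 (adjusted p = 0.0309), which missed the threshold with the gene length offsets. The other 3 did not pass. Lsm4 differed by 0.85 ± 0.27 (adjusted p = 0.0754), Lsm7 by 0.79 ± 0.22 (adjusted p = 0.055) and Lsm8 by 0.36 ± 0.13 (adjusted p = 0.102). Lsm4 and Lsm7 both stood at 0.48 without Vivo replicate 3.

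The Sm ring carries U1, U2, U4 and U5 RNA. All 8 genes tested under this role had log2 fold changes above 0 for Vivo against Con, from 0.46 to 0.84 with a median of 0.60, and 1 rose. Without Vivo replicate 3 the range was 0.11 to 1.04 and the median 0.36, and with the length offsets the median was 0.40. The gene that rose was Snrpf (ENSRNOG00000005556), with 44.8, 42.9 and 64.5 CPM in the Vivo libraries, 34.6, 40.8 and 36.98 CPM in the Vitro libraries and 29.2, 36.2 and 30.6 CPM in the Con libraries. The Vivo libraries were above all 6 cultured libraries, and Vivo replicate 3 was well above the other Vivo libraries. The log2 fold change was 0.67 ± 0.18 (adjusted p = 0.0439), against 0.44 without Vivo replicate 3 (adjusted p = 0.0436), and it was not called with upper quartile scaling. Snrpd2 (ENSRNOG00000015844), the most abundant of the ring, had 92.2, 87.3 and 167 CPM in the Vivo libraries, 74.3, 74.5 and 80.1 CPM in the Vitro libraries and 79.9, 80.1 and 74.6 CPM in the Con libraries. Vivo replicate 3 stood far above the rest, and the log2 fold change was 0.56 ± 0.22 with an adjusted p of 0.139, against 0.18 without that library. Snrpb (ENSRNOG00000006961), which encodes the Sm B proteins, had 149.8, 137 and 219.6 CPM in the Vivo libraries, 106, 119.5 and 133 CPM in the Vitro libraries and 94.7, 129 and 102 CPM in the Con libraries. Its Vivo libraries did not overlap the others either, but the log2 fold change of 0.64 ± 0.20 came with an adjusted p of 0.0722, and it was 0.38 without Vivo replicate 3.

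In the U4/U6.U5 tri-snRNP, 15 of 16 genes tested had log2 fold changes above 0 for Vivo against Con, the median was 0.31 and 3 rose. Prpf4 and Ppih encode proteins that bind each other within U4/U6 snRNP, and these genes had the smallest adjusted p of all members. Prpf4 (ENSRNOG00000014777) had 37.4, 33.2 and 36.2 CPM in the Vivo libraries, 23.3, 26.5 and 29.3 CPM in the Vitro libraries and 17.6, 25.2 and 19.2 CPM in the Con libraries. The 3 groups did not overlap except that Con replicate 2 lay within the Vitro range. It had a log2 fold change of 0.78 ± 0.16 and an adjusted p of 0.02, with means of 35.6 ± 2.14 CPM in Vivo and 20.7 ± 4.01 CPM in Con (SD, n = 3 each). Ppih (ENSRNOG00000008489), a cyclophilin-type prolyl isomerase, had 22.4, 16.8 and 30.2 CPM in the Vivo libraries, 13.8, 11.7 and 17 CPM in the Vitro libraries and 12, 10.3 and 10.2 CPM in the Con libraries. The Con libraries were close together and the Vivo libraries spread out, with Vivo replicate 2 just under Vitro replicate 3. Ppih had the largest change of the 12, a log2 fold change of 1.09 ± 0.23 and an adjusted p of 0.0203. Its deposited FPKM gave a smaller one, with an average of 10.1 FPKM in Vivo and 6.28 FPKM in Con, and it was not called by limma on log2(FPKM + 1). The gene length implied by its counts and FPKM varied 1.74-fold among libraries. Prpf31 (ENSRNOG00000061039), which tethers U4/U6 to U5, had 42.99, 40.3 and 51.5 CPM in the Vivo libraries, 32.4, 36.7 and 37.7 CPM in the Vitro libraries and 25.3, 33.4 and 28.4 CPM in the Con libraries. The Vivo libraries were above all others and Con replicate 2 was the highest of Con. It had a log2 fold change of 0.63 ± 0.15 and an adjusted p of 0.0316.

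For the 2 largest U5 proteins the values lay near 0. Prpf8 (ENSRNOG00000003495), the scaffold around the catalytic centre, had 353, 354 and 270 CPM in the Vivo libraries, 359, 358 and 353 CPM in the Vitro libraries and 358, 353 and 329 CPM in the Con libraries. The 8 libraries other than Vivo replicate 3 lay close together. The log2 fold change was -0.09 ± 0.13 (adjusted p = 0.69), and Snrnp200, the helicase that unwinds U4 from U6, had one of 0.00 ± 0.13 (adjusted p = 0.998). Leaving out Vivo replicate 3 gave 0.01 for Prpf8, with the sign turned, and 0.08 for Snrnp200.

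U2 snRNP and its associated factors form the largest role, with 21 genes tested. Their median log2 fold change for Vivo against Con was 0.32, 19 were above 0 and 2 rose, both from the SF3a subcomplex. Sf3a3 (ENSRNOG00000007629) had 79.2, 77.9 and 88.8 CPM in the Vivo libraries, 56.4, 61.9 and 65.5 CPM in the Vitro libraries and 48.8, 61.5 and 56.2 CPM in the Con libraries. Each Vivo library exceeded each cultured library, and Con and Vitro overlapped. Its log2 fold change was 0.56 ± 0.13 (adjusted p = 0.0275). Sf3a1 (ENSRNOG00000005218) had 112, 102 and 114 CPM in the Vivo libraries, 75.5, 89.6 and 96.6 CPM in the Vitro libraries and 64.1, 82.2 and 76.6 CPM in the Con libraries. Vivo again lay above both cultured groups, and the log2 fold change was 0.56 ± 0.14 (adjusted p = 0.0365). The remaining SF3a subunit, Sf3a2, differed by 0.79 ± 0.24 (adjusted p = 0.0686), or by 0.42 without Vivo replicate 3. Within SF3b the values spread. Sf3b1 (ENSRNOG00000013516), which clamps the branch point helix, had 419, 422 and 273 CPM in the Vivo libraries, 337, 412 and 432 CPM in the Vitro libraries and 428, 427 and 469 CPM in the Con libraries. All Vivo libraries were below all Con libraries, Vivo replicate 3 by far the most, with a log2 fold change of -0.25 ± 0.18 and an adjusted p of 0.402, or -0.09 without that library. Sf3b5 (ENSRNOG00000014908), a small SF3b subunit and the most abundant U2 gene per length, averaged 58.9 ± 19.99 CPM in Vivo, 45.6 ± 3.42 CPM in Vitro and 48.4 ± 2.48 CPM in Con (SD, n = 3 each). Its groups overlapped (log2 fold change 0.28 ± 0.21, adjusted p = 0.409), and without Vivo replicate 3 the sign turned (-0.05). U2af1, which reads the AG at the end of the intron, differed by 0.38 ± 0.15 (adjusted p = 0.147), or by 0.25 without Vivo replicate 3.

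Of 7 genes of U1 snRNP and associated factors, 1 rose, and their median was 0.06, or 0.27 without Vivo replicate 3. The gene that rose was Snrpa (ENSRNOG00000001501), the U1 protein that binds a stem-loop of U1 RNA, with 60.4, 55.1 and 69.97 CPM in the Vivo libraries, 30.3, 43.05 and 45.3 CPM in the Vitro libraries and 27.8, 42.8 and 32.6 CPM in the Con libraries. The Vivo libraries stood well above the cultured ones, among which Vitro replicate 1, Con replicate 1 and Con replicate 3 were the lowest. The log2 fold change was 0.84 ± 0.20 (adjusted p = 0.0316). Without Vivo replicate 3 it was not called (0.73, adjusted p = 0.0514), and it was called in 3 of 9 fits with 1 library left out. Snrnp70 (ENSRNOG00000020763), another U1 protein, had 205, 199.7 and 144 CPM in the Vivo libraries, 141, 198 and 206 CPM in the Vitro libraries and 182, 198 and 209 CPM in the Con libraries. The lowest value of Vivo and the lowest of Vitro both lay under every Con library, and the log2 fold change was -0.10 ± 0.18 (adjusted p = 0.756), or 0.02 without Vivo replicate 3. Ddx5 (ENSRNOG00000030680) averaged 735 ± 72.1 CPM in Vivo and 705 ± 45.5 CPM in Con, with overlapping libraries and a log2 fold change of 0.06 ± 0.13 (adjusted p = 0.794), or 0.12 without Vivo replicate 3.

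Among 10 genes of the cap-binding, exon junction and TREX complexes the median was 0.34 for Vivo against Con, and 1 rose. Alyref (ENSRNOG00000036687), an adaptor that passes spliced mRNA to the export receptor, had 98.2, 79.4 and 109 CPM in the Vivo libraries, 52.5, 66.7 and 69.8 CPM in the Vitro libraries and 49.2, 67.5 and 54.8 CPM in the Con libraries. Every Vivo library was above every cultured library, while Vitro and Con overlapped. It had a log2 fold change of 0.74 ± 0.18 and an adjusted p of 0.0302. In the exon junction complex, the helicase Eif4a3 (ENSRNOG00000045791) had 110, 111 and 172 CPM in the Vivo libraries, 94.6, 96.6 and 94.3 CPM in the Vitro libraries and 89.2, 106 and 93.3 CPM in the Con libraries. Vivo replicate 3 was far above the other Vivo libraries, and the log2 fold change of 0.45 ± 0.18 did not pass (adjusted p = 0.137) and was 0.18 without that library. Magoh, an exon junction core subunit, differed by 0.51 ± 0.18 (adjusted p = 0.102), or by 0.28 without it. Its paralog Magohb was among the 5 genes with all Vivo libraries below all Con libraries, with 4.95, 5.88 and 5.14 CPM in the Vivo libraries and 6.25, 7.41 and 7.07 CPM in the Con libraries. The difference did not pass (log2 fold change -0.38 ± 0.19, adjusted p = 0.225), and reads of close copies such as these may have been split between them. Thoc2, a large TREX subunit, had 60.5, 62.5 and 15.4 CPM in the Vivo libraries and 61.9, 55.9 and 63.95 CPM in the Con libraries. Only Vivo replicate 3 was low, and the difference did not pass (adjusted p = 0.555).

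The 7 hnRNP and related genes had log2 fold changes above 0, and 1 rose. That was Rbmxl1 (ENSRNOG00000012138), a close relative of the nuclear RNA-binding protein gene Rbmx, with 68.97, 66.96 and 74.3 CPM in the Vivo libraries, 51.4, 59.6 and 58.1 CPM in the Vitro libraries and 50.5, 56.03 and 47.4 CPM in the Con libraries. Vivo lay above both cultured groups, and the log2 fold change was 0.45 ± 0.12 (adjusted p = 0.0458). It was not called with upper quartile scaling or with no filter, and was called in 2 of 9 fits with 1 library left out. Counts of Rbmxl1 and Rbmx may be shared, and Rbmx itself differed by 0.21 ± 0.11 (adjusted p = 0.224). Hnrnpk (ENSRNOG00000019113) had 650.5, 623 and 391 CPM in the Vivo libraries, 560.4, 592 and 609.9 CPM in the Vitro libraries and 521, 589 and 540 CPM in the Con libraries. Vivo replicate 3 was the lowest library and Vivo replicate 1 the highest, and the log2 fold change was 0.01 ± 0.18 (adjusted p = 0.972), or 0.19 without Vivo replicate 3. Hnrnpc, which binds uridine tracts, had 51.9, 43.5 and 47.2 CPM in the Vivo libraries and 21.7, 34.1 and 66.97 CPM in the Con libraries. The Con libraries differed more from each other than the groups did, and the length implied by counts and FPKM varied 2.59-fold among libraries, so its values are uncertain. That variation exceeded 1.5-fold in 6 of 112 spliceosome genes (Ppih, Hnrnpc, Rp9, LOC100911576, LOC100360750 and LOC100359574).

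None of 11 SR and Tra2 genes passed for Vivo against Con, and their median was 0.15. SR proteins bind exonic enhancers and recruit the core machinery. Srsf7 (ENSRNOG00000027360) had 100.1, 92.2 and 100.3 CPM in the Vivo libraries, 61.97, 76.05 and 80.7 CPM in the Vitro libraries and 56.97, 80.1 and 67.3 CPM in the Con libraries. The Vivo libraries lay above all others, and the log2 fold change of 0.52 ± 0.15 came with an adjusted p of 0.0636. Srsf3 (ENSRNOG00000000520) had 257, 235 and 264 CPM in the Vivo libraries, 193, 207 and 219 CPM in the Vitro libraries and 178, 233 and 203 CPM in the Con libraries. Vivo was again above both cultured groups, by a log2 fold change of 0.30 ± 0.13 over Con (adjusted p = 0.168). Srsf1 (ENSRNOG00000050323) had 358, 323 and 196 CPM in the Vivo libraries and 237, 285 and 256 CPM in the Con libraries. Vivo replicate 3 was the lowest and Vivo replicate 1 the highest of these 6, with a log2 fold change of 0.17 ± 0.21 (adjusted p = 0.63). Srsf2 differed by 0.10 ± 0.20 (adjusted p = 0.781), again with overlapping groups. Leaving out Vivo replicate 3 gave 0.37 for Srsf1 and 0.22 for Srsf2, and Tra2b then rose (0.41, adjusted p = 0.0431).

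Nor did any of 18 genes of the Prp19 complex and its partners, or of 6 genes of the catalytic steps, pass for Vivo against Con, with medians of 0.24 and 0.17. Prpf19 (ENSRNOG00000020897), the ubiquitin ligase that names the complex, had 178, 182 and 218 CPM in the Vivo libraries, 146, 167 and 169 CPM in the Vitro libraries and 123, 170 and 133 CPM in the Con libraries. The Vivo libraries exceeded all others by a small margin, and the log2 fold change was 0.44 ± 0.15 (adjusted p = 0.0965). Dhx16 (ENSRNOG00000030157), the helicase that readies the spliceosome for the first reaction, had 31.6, 34.6 and 35.1 CPM in the Vivo libraries, 21.8, 27.6 and 26.8 CPM in the Vitro libraries and 26.7, 26.7 and 22.9 CPM in the Con libraries. Its Vivo libraries did not overlap the others, with a log2 fold change of 0.41 ± 0.14 and an adjusted p of 0.091. Slu7, a factor of the second reaction, differed by 0.23 ± 0.13 (adjusted p = 0.298). Dhx8, a helicase that releases the spliced mRNA, had all Vivo libraries below all Con libraries, at 36.04 ± 1.13 CPM in Vivo and 41.9 ± 1.53 CPM in Con (SD, n = 3 each; adjusted p = 0.233). The 5 genes of this kind were Sf3b1, Magohb, Dhx8, Tra2a and Ddx42, and none of the 5 passed even unadjusted. Rp9, outside these roles, differed by 0.03 ± 0.24 (adjusted p = 0.943), or by 0.09 without Vivo replicate 3. The median of the Prp19 group was 0.16 without that library.

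**Figure D2:**
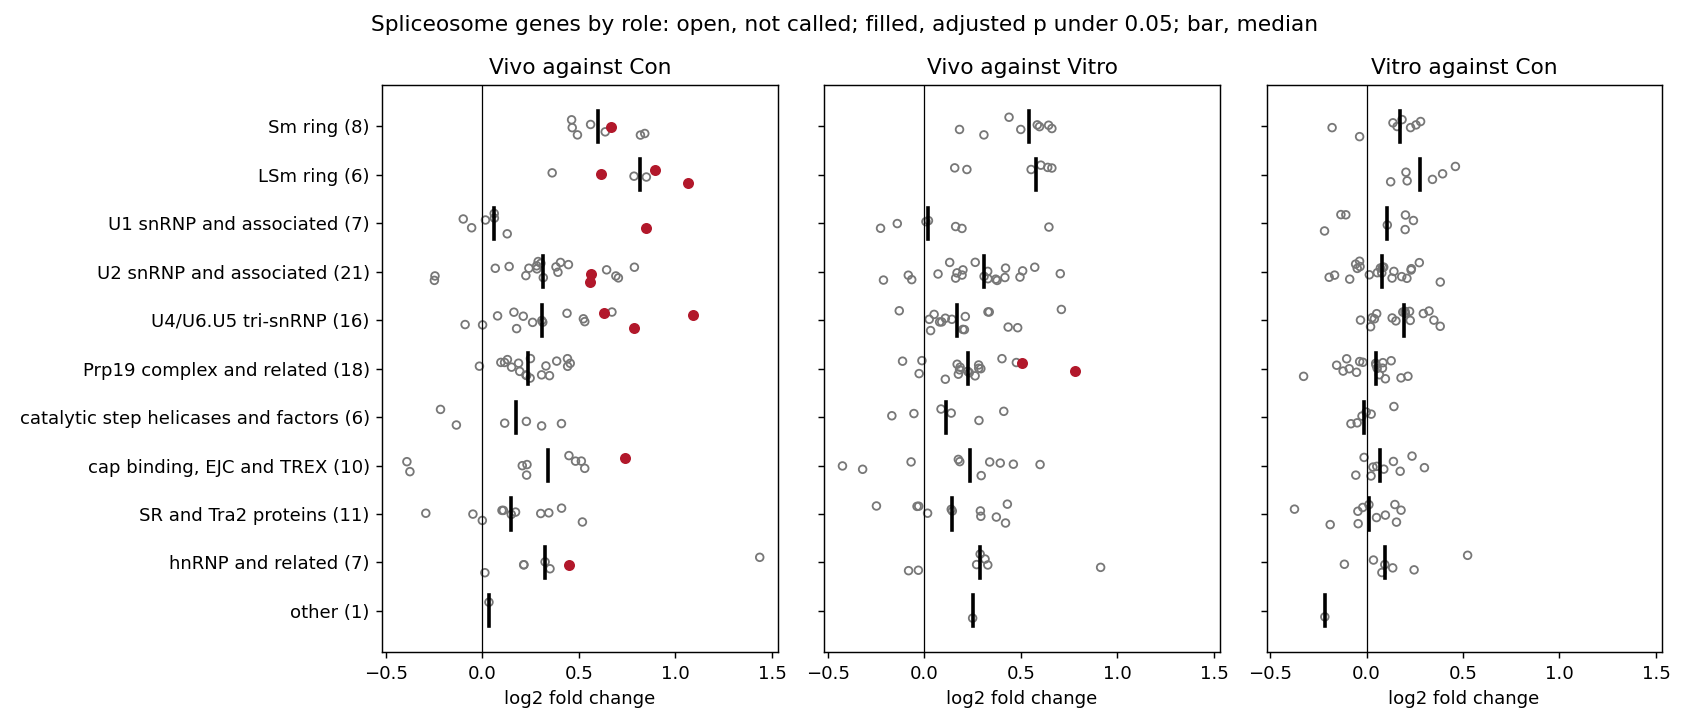
Log2 fold change of each spliceosome gene tested, by role (number of genes in brackets), for Vivo against Con, Vivo against Vitro and Vitro against Con. Open circles did not pass, filled circles had an adjusted p under 0.05 and black bars are medians. In the first panel the LSm ring (median 0.82) and the Sm ring (median 0.60) lie farthest to the right, which for the Sm ring rests on Vivo replicate 3 (without it 0.36, below 0.39 for the hnRNP genes). No filled circle lies left of 0 in any panel.

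Libraries of a group differed from each other in the same direction across many spliceosome genes. These genes took 1.156%, 1.13% and 1.042% of all counts in the Vivo libraries, 0.847%, 1.035% and 1.059% in the Vitro libraries and 0.8434%, 0.9652% and 0.8993% in the Con libraries. The 95% Wilson interval, which covers counting error only, ran from 1.038% to 1.047% for Vivo replicate 3 and from 1.055% to 1.064% for Vitro replicate 3, so the lowest Vivo library was below the highest Vitro library by more than counting error. The group means were 1.109% ± 0.0597 in Vivo, 0.9803% ± 0.116 in Vitro and 0.9026% ± 0.061 in Con (SD, n = 3 each). Per gene rather than by summed counts, the median deviation from a gene's mean over the 9 libraries was 0.19, 0.13 and 0.25 on the log2 CPM scale in Vivo, -0.15, -0.01 and 0.03 in Vitro and -0.20, -0.03 and -0.14 in Con. Over all genes tested it was 0.01 to 0.02 in every library. On this measure the Vivo libraries were the highest 3 of the 9. Con replicate 2 was the highest of the Con libraries for 77 of the 111 genes, beside 39.6% of all genes, and for 11 of the 12 that rose in Vivo. Vitro replicate 1 was the lowest of the Vitro libraries for 71 genes, beside 39% of all genes, and for 10 of the 12. Over the 111 genes, Vivo replicate 2 was the lowest of the Vivo libraries for 52, beside 27.4% of all genes. Vivo replicate 3 was the highest for 58 and the lowest for 40, beside 43.7% and 42.8% of all genes. Among the 12, which the test of Vivo against Con had picked, Vivo replicate 2 was the lowest for all 12 and Vivo replicate 3 the highest for 10.

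**Figure D3:**
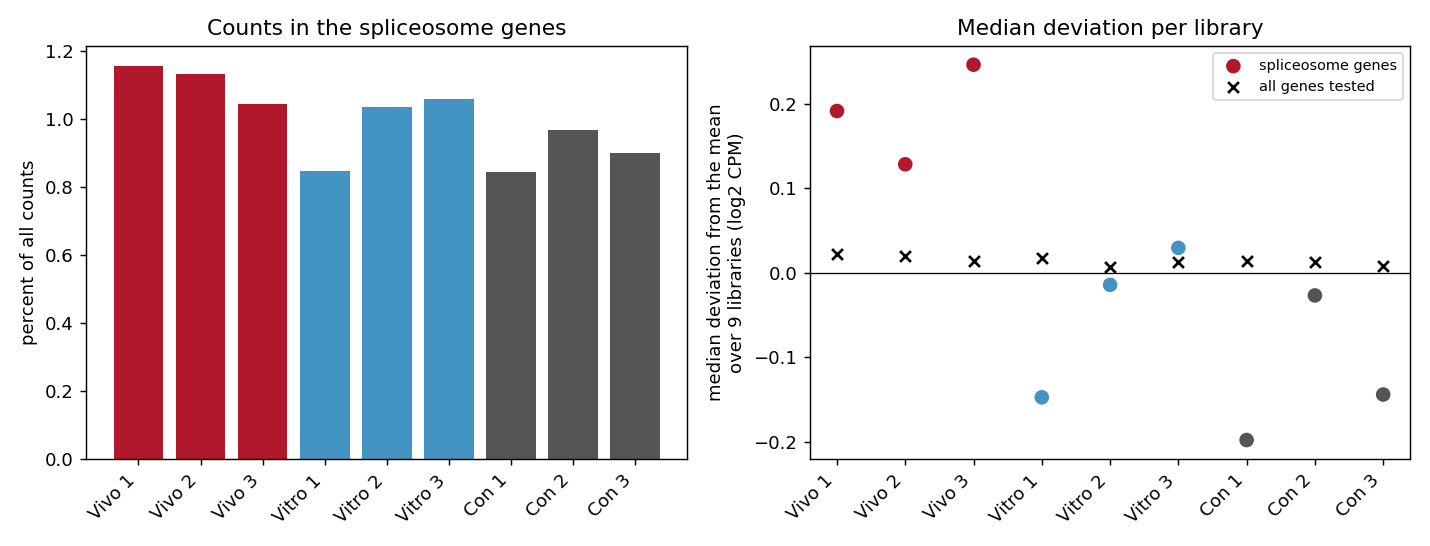
Left, percent of all counts in the 113 spliceosome genes, 1 bar per library with an axis from 0. Right, median over the 111 tested genes (coloured points) and over all 12364 genes (crosses) of log2 CPM minus the gene's mean over the 9 libraries. Vivo points lie at 0.13 to 0.25 and Con points at -0.20 to -0.03, and Vitro replicate 1 lies with the lower Con libraries.

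Gene length went with the size of the difference. Length is here the number of bases implied by a gene's counts and FPKM, from 236 for Snrpg to 10485 for Prpf8 among the genes tested. Across the 111 genes, the log2 fold change for Vivo against Con had a Spearman correlation of -0.543 with length, beside -0.204 across 12340 genes; genes share their libraries, so these are descriptions. Vivo replicate 3 deviated along length with a rho of -0.663 over the spliceosome genes and -0.522 over all genes, where the deviation is taken from the other Vivo libraries. Without Vivo replicate 3 the correlation of the fold change with length was -0.168. With offsets that took out the trend with length, fitted per library over all genes, it was -0.203. The 56 genes at or under the median length of 2670 bases had a median log2 fold change of 0.45 and 8 rises, beside a median of 0.13 over all genes that short. The 55 longer ones had a median of 0.21 and 4 rises, beside -0.05 over all longer genes. Without Vivo replicate 3 these medians were 0.26 (6 rises) for the shorter genes and 0.25 (8 rises) for the longer ones. With the offsets they were 0.32 (14 rises) and 0.25 (6 rises). The share of all genes tested that rose was 5.17% with all 9 libraries, 6.46% without Vivo replicate 3 and 6.94% with the offsets. That share was not counted by length, so the numbers of rises are not read as a result about the shorter or longer spliceosome genes. The 20 genes called with the offsets held 11 of the 12 named above, and the 14 called without Vivo replicate 3 held 10. The gap between shorter and longer genes was thus smaller without that library, while the median over all 111 genes was 0.28 with the offsets and 0.25 without Vivo replicate 3.

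**Figure D4:**
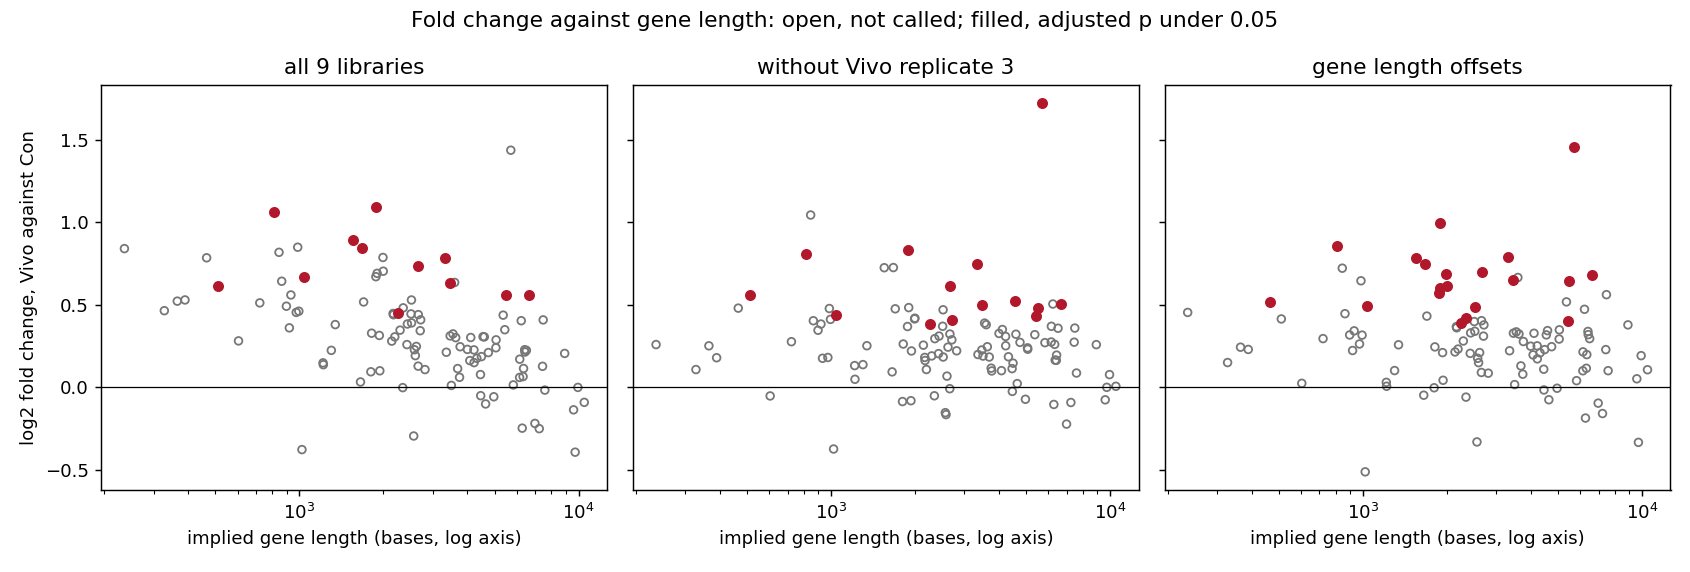
Log2 fold change for Vivo against Con (vertical axis) against implied gene length in bases (horizontal log axis), 1 point per spliceosome gene, from all 9 libraries, without Vivo replicate 3 and with gene length offsets. Open circles did not pass and filled circles had an adjusted p under 0.05. The rank correlation of the left panel (rho -0.543) is weaker in the other panels (rho -0.168 and -0.203), where most points still lie above 0.

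The comparison of Vivo with Vitro set recovered cells against cells kept in culture for the same time. It shares the Vivo libraries with the comparison above. The spliceosome genes again lay mostly higher in Vivo, with 92 of 111 above 0 (82.9%, beside 51.6% of all genes) and a median log2 fold change of 0.23, beside 0.02 over all genes. This median was 0.17 without Vivo replicate 3 and 0.21 with the gene length offsets. Length again went with the fold change (rho -0.579, beside -0.257 over all genes). Without Vivo replicate 3 the rho over the spliceosome genes was -0.17, and with the offsets -0.029. Single genes seldom passed. Relative to Vitro, 2 of 111 rose (1.8%, beside 5.38% of all genes) and 0 fell (beside 5.52%), and at an unadjusted p under 0.05 the numbers were 34 higher (beside 14.6%) and 0 lower (beside 13.2%). DESeq2 called 13 higher (beside 8.42%) and 0 lower (beside 8.8%). Vivo libraries lay entirely above Vitro libraries for 46 genes (41.4%, beside 17.7%) and entirely below for 3 (2.7%, beside 17.5%).

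Both genes that rose belong to the Prp19 complex and its partners. Isy1 (ENSRNOG00000010021) had 52.01, 49.8 and 56.5 CPM in the Vivo libraries, 35.2, 35.8 and 40.5 CPM in the Vitro libraries and 42.5, 36.6 and 42.2 CPM in the Con libraries. The Vivo libraries lay above all cultured libraries, and Vitro and Con overlapped. The log2 fold change for Vivo against Vitro was 0.51 ± 0.12 (adjusted p = 0.0305), and for Vivo against Con 0.38 ± 0.12 (adjusted p = 0.081). Ccdc12 (ENSRNOG00000020946), a coiled-coil protein found in activated spliceosomes, had 15.1, 14.9 and 23.6 CPM in the Vivo libraries, 10.8, 9.62 and 10.8 CPM in the Vitro libraries and 15.1, 12.7 and 11.3 CPM in the Con libraries. Vitro was below Con in every library, and Vivo replicate 3 stood far above the other 2 Vivo libraries, which did not exceed Con replicate 1 beyond rounding. The log2 fold change against Vitro was 0.78 ± 0.21 (adjusted p = 0.0428), and 0.51 without Vivo replicate 3 (adjusted p = 0.0568). Neither gene passed in the fit to the 2 groups alone, and each was called in only 2 of 9 fits with 1 library left out, where the adjusted p reached 0.122 for Isy1 and 0.146 for Ccdc12. Next in order were Tra2b, a regulator that promotes exon inclusion, and Alyref. Tra2b (ENSRNOG00000001783) had 181, 159 and 164 CPM in the Vivo libraries, 120.2, 123 and 132 CPM in the Vitro libraries and 111, 135 and 134 CPM in the Con libraries. Its Vivo libraries lay above all others, with a log2 fold change against Vitro of 0.43 ± 0.12 (adjusted p = 0.0515), and it was called without Vivo replicate 3 (adjusted p = 0.0348). Alyref differed from Vitro by 0.60 ± 0.17 (adjusted p = 0.0563). Of the 12 genes that rose relative to Con none passed here, and their log2 fold changes against Vitro ran from 0.22 for Lsm5 to 0.71 for Ppih. Without Vivo replicate 3 they ran from 0.17 for Lsm5 to 0.53 for Snrpa, and Ppih stood at 0.46. By role the medians were 0.58 for the LSm ring, 0.54 for the Sm ring, 0.31 for U2, 0.29 for the hnRNP genes, 0.24 for the cap, junction and export genes, 0.23 for the Prp19 group, 0.17 for the tri-snRNP, 0.14 for SR and Tra2 genes, 0.11 for the catalytic steps and 0.02 for U1. Without Vivo replicate 3 they were 0.31 for the LSm ring, 0.22 for the Sm ring, 0.17 for U2, 0.32 for the hnRNP genes, 0.16 for the cap, junction and export genes, 0.12 for the Prp19 group, 0.11 for the tri-snRNP, 0.24 for SR and Tra2 genes, 0.18 for the catalytic steps and 0.15 for U1, so the order of the roles was not the same.

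The comparison of Vitro with Con asked what further culture alone went with, and it shares the Con libraries with the first comparison. No spliceosome gene passed in either direction (0 of 111, beside 0.00809% of all genes higher and 0.0243% lower, 4 genes in all). At an unadjusted p under 0.05, 1 was higher and 1 lower, beside 6.08% and 5.28% of all genes, and DESeq2 called 0 in either direction (beside 1.04% and 1.38%). The log2 fold change was above 0 for 77 of 111 genes (69.4%, beside 49.9% of all genes), with a median of 0.08. Libraries did not overlap for 8 genes that were higher in Vitro (7.21%, beside 11.1%) and 5 that were lower (4.5%, beside 10.3%). The gene with the smallest p was Srsf5 (ENSRNOG00000005513), an SR protein, with 154, 169 and 171 CPM in the Vivo libraries, 112, 135 and 135 CPM in the Vitro libraries and 153, 166 and 176 CPM in the Con libraries. Vitro lay below both other groups, which covered the same range. Its log2 fold change for Vitro against Con was -0.37 ± 0.12 (adjusted p = 0.299). Lsm5 followed with 0.39 ± 0.15 (adjusted p = 0.349), then Prpf4 with 0.35 ± 0.16 (adjusted p = 0.463). Ncbp1 (ENSRNOG00000023605), the large subunit of the nuclear cap-binding complex, had 72.9, 66.5 and 53.4 CPM in the Vivo libraries, 60.6, 67.9 and 73.8 CPM in the Vitro libraries and 50.8, 60.2 and 53.3 CPM in the Con libraries. Vitro was above Con in every library, while the Vivo libraries spanned both, and the log2 fold change for Vitro against Con was 0.30 ± 0.15 (adjusted p = 0.492).

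Over the 3 groups together, mean CPM was highest in Vivo, lower in Vitro and lowest in Con for 64 of the 111 genes (57.7%), an order that 19.8% of all genes had. For the 12 genes that rose relative to Con the Vitro mean lay between the other means in each case. As the comparison of Vitro with Con called none of them, the place of Vitro in this order is not resolved by the test.

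Genes that act around the spliceosome but lie outside the annotation were counted from lists. The counts stand beside 5.17% of all genes tested that rose and 4.56% that fell in Vivo relative to Con. Relative to Vitro these shares were 5.38% and 5.52%. A single call in lists this short is not read as a result about the list. Of 17 snRNP assembly genes tested, 1 rose in Vivo relative to Con and the median log2 fold change was 0.27. It was Gemin6 (ENSRNOG00000027332), a subunit of the SMN complex that loads Sm rings onto snRNA, with 15.4, 12.04 and 15.2 CPM in the Vivo libraries, 6.52, 11.3 and 8.77 CPM in the Vitro libraries and 4.89, 8.83 and 5.68 CPM in the Con libraries. The Vivo libraries were above all others, and the log2 fold change was 1.14 ± 0.27 (adjusted p = 0.0312). Of 13 genes of the minor spliceosome, which removes a rare class of introns, none passed and the median was 0.10. Of 9 SR protein kinases and related genes tested none passed against Con (median -0.10), and 1 fell against Vitro. This was Srpk2, with 44.1, 42.7 and 32.3 CPM in the Vivo libraries and 64.3, 57.3 and 58.1 CPM in the Vitro libraries (log2 fold change -0.59 ± 0.14, adjusted p = 0.0274). Of 11 further spliceosome genes outside the annotation that could be tested, 1 rose, Hnrnpa1 (ENSRNOG00000036839), an abundant hnRNP that represses exons, with 918, 840.1 and 831 CPM in the Vivo libraries, 501, 657 and 659.5 CPM in the Vitro libraries and 481, 617 and 518 CPM in the Con libraries. Its Vivo libraries stood apart from both cultured groups, with a log2 fold change of 0.68 ± 0.15 and an adjusted p of 0.0249. Of 62 other splicing regulators tested 2 rose and 2 fell relative to Con, beside the 5.17% and 4.56% of all genes given above. Khdrbs3 (ENSRNOG00000009539), a STAR family RNA-binding protein, had 10.2, 14.9 and 17.99 CPM in the Vivo libraries, 4.08, 6.05 and 4.78 CPM in the Vitro libraries and 4.09, 5.15 and 4.81 CPM in the Con libraries. This was a log2 fold change of 1.61 ± 0.25 and an adjusted p of 0.00528, and against Vitro it also rose, by 1.53 ± 0.25 (adjusted p = 0.00466). Mbnl3 (ENSRNOG00000002487), of the muscleblind family, had 1.30, 0.872 and 0.286 CPM in the Vivo libraries, 4.25, 5.02 and 6.54 CPM in the Vitro libraries and 2.10, 5.09 and 3.48 CPM in the Con libraries. It fell relative to Con (log2 fold change -2.10 ± 0.50, adjusted p = 0.0304) and relative to Vitro (-2.67 ± 0.50, adjusted p = 0.00927). Hnrnpd, which binds AU-rich RNA, rose by 0.44 ± 0.12 (adjusted p = 0.0462), and Nova1, a splicing regulator best known from neurons, had a log2 fold change of -0.70 ± 0.19 (adjusted p = 0.0454) and fell. With 1 library left out, the calls of Khdrbs3, and that of Mbnl3 against Vitro, held in all 9 fits. Gemin6, Hnrnpa1, Mbnl3 against Con and Srpk2 were each called in 5 of 9, Nova1 in 3 and Hnrnpd in 1. The largest adjusted p of those that were lost ran from 0.0832 for Srpk2 to 0.18 for Hnrnpd. In the comparison of Vitro with Con 0 genes passed in any of these lists.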

How the data were processed

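Libraries were made from Trizol-extracted RNA with a stranded mRNA kit, per the labels' protocols, and reads were aligned with HISAT2 to Rnor_6.0, per the submitters' processing notes. How reads were counted, with which strand setting, and how FPKM were made is not given in the sources consulted, so overlapping genes and close copies are uncertain. The deposited table gives each gene's whole-number count per library, not normalised, and an FPKM made by the authors. Gene positions were not used here. Library groups follow the labels.

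The test used edgeR 4.0.16 under R 4.3.3. filterByExpr kept 12364 genes, and no floor on fold change was used. Scaling was by TMM. All 9 libraries entered a single quasi-likelihood fit (6 residual degrees of freedom), which was tested two-sided for 3 contrasts and for any difference, with Benjamini-Hochberg adjustment over all genes and a threshold of 0.05. CPM are TMM-scaled. The SE of a log2 fold change is its absolute value over the square root of F. Implied length is the median over libraries of the length that counts and FPKM give. No library pair agreed within sampling noise (chi-square per gene 11.7 to 132 between replicates). The fit was tested on simulated data, with 100 genes changed 2-fold and 100 changed 4-fold. Of the 2-fold changes 57% were recovered for Vivo against Con, 41% for Vivo against Vitro and 48% for Vitro against Con. Of the 4-fold changes 90%, 93% and 92% were recovered, and false calls numbered 7, 9 and 3. Alternatives were RLE and upper quartile scaling, no filter, at least 1 CPM in 3 libraries, DESeq2 1.42.0, limma 3.58.1 on log2(FPKM + 1), offsets from a loess trend with length (span 0.5), a replicate block, 2 groups alone, the Hspa genes kept in and each library left out. Figures were drawn with matplotlib 3.10.9 in Python 3.11.15. Promoter sequences are RefSeq's (GRCr8). They were matched to the spliceosome genes by Ensembl identifier or, failing that, by symbol, and to all genes tested by symbol alone.

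The spliceosome genes, roles and lists were chosen with earlier results of these data known. Naming rule: in each comparison, at most 8 rises and 8 falls by p, or the 4 smallest p where fewer than 4 passed, per role the highest FPKM and the smallest any-difference p, and 14 fixed genes. Others, Lsm2, Sf3a1, Snrnp200, Magohb, Dhx8, Thoc2 and Hnrnpc among them, were chosen after their values were seen.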

Additional observations from a re-analysis of the deposited data

How the results depend on the processing

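In every alternative tried, the median log2 fold change of the spliceosome genes kept its direction, and every call among these genes was a rise in Vivo. The median moved by less than 0.0809, the SD between replicates of the median deviation per library. The alternatives reuse all or most of the same libraries, so a small move was likely in advance and is no independent support. The numbers called moved. For Vivo against Con, where 12 were called, 20 were called with gene length offsets (11 shared with the 12) and 20 by limma on log2(FPKM + 1) (11 shared). DESeq2 called 29 (12 shared), and 2 were called in the 2 compared groups alone. Of all genes tested, 5.17% rose in the main fit, 6.94% with the offsets, 6.54% by limma, 9.13% by DESeq2 and 2.88% in the 2 groups alone. With 1 library left out the number ran from 0 to 14, beside 1.25% to 6.46% of all genes. For Vivo against Vitro, where 2 were called, 5 were called with gene length offsets, 5 by limma on log2(FPKM + 1), 13 by DESeq2 and 0 in the 2 groups alone. The shares of all genes were 5.38% in the main fit, then 6.39%, 4.93%, 8.42% and 3.48% in that order. With 1 library left out 0 to 5 were called, beside 2.41% to 5.86% of all genes. For any difference, where 6 were called, 3 were called with upper quartile scaling and 0 to 7 with 1 library left out. The cause was not tested. The leave-one-out and 2-group fits also hold fewer libraries, and what this did to the numbers was not tested either. The correlation of deviations exceeded 0.1 in 3 of 9 same-numbered pairs (range -0.015 to 0.358), so the numbers were not taken to pair the samples in any comparison. Between Vitro and Con it was 0.358, 0.324 and 0.092 for equal numbers and -0.339 to 0.099 for unequal ones, and 5 of the 6 libraries correlated best with their own number, a hint from the data and not from the design. With the replicate block, 10 genes were called for Vivo against Con (9 shared, without Lsm5, Snrpf and Rbmxl1), beside 5.23% of all genes that rose. It called 1 for Vivo against Vitro (beside 4.95%), 0 for Vitro against Con and 3 for any difference. Groups of 3 libraries and a common biological coefficient of variation of 0.231 limit what single genes can show.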
